A study of Mus musculus with 36 samples.

Results

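The transcription factor p53 and 9 of its best known target genes formed the set described here: Trp53, Cdkn1a, Mdm2, Btg2, Ccng1, Trp53inp1, Aen, Gadd45a, Bax and Phlda3. They were chosen by name, with earlier results of these data known. The probe sets read are those of the deposited table whose gene symbol is one of these 10. For 8 of the 10 genes the annotation used here named at least 1 probe set, 16 of the 22690 in the table. It names no probe set for Trp53 or Bax, which were not analysed here. All 8 measured genes lay above the level below which genes were not tested, out of 12393 genes read and 7436 tested. That level applied to the mean over both genotypes, and the lowest mean signal tested was 123. In PKBa-/- arrays alone the median signal was 96.3 for Gadd45a and 122 for Trp53inp1, below it.

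The series followed mouse embryonic fibroblasts (MEFs) over time on 36 Affymetrix arrays. PKBa-/- MEFs lack Akt1, the gene of protein kinase B alpha, and wild type MEFs carry it; both came from embryos of heterozygous crosses, 13.5 days old, and were used between passages 15 and 20 in DMEM with serum. At times 0, 6, 24 and 48 there were 4 arrays per genotype, and at time 2 there were 2; the times carry no unit in the labels. The title speaks of DMEM treatment, whereas a medium that induces adipocytes is also described, and the labels do not say which arrays received it.

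p53 is held low in unstressed cells by Mdm2, a ubiquitin ligase whose own gene p53 switches on, so that the pair forms a feedback loop. Akt kinases phosphorylate Mdm2 and are counted among the regulators of this loop. When p53 is active it raises genes that stop the cell cycle (Cdkn1a, Btg2), and Ccng1, whose product recruits a phosphatase to Mdm2. It also raises genes of repair and stress signalling (Gadd45a), and of cell death, autophagy or the braking of Akt (Trp53inp1, Aen, Bax, Phlda3). MEFs that have been passaged many times often lose p53 function, and neither the protein nor mutations of Trp53 were measured here. Several of these targets also respond to serum, hormones and growth arrest without p53.

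The motif that p53 binds can be read in the promoters of several of these genes. RefSeq promoter windows (GRCm38.p6, 250 bases before to 50 after a start) were held for 9 of the 10 genes, 11 windows in all; Trp53inp1 had none. They were searched for the p53 consensus motif of 10 bases, which reads alike on both strands, without a mismatch. They were also searched for a double motif, 2 such motifs at most 1 base apart with at most 3 mismatches and the C and G of each core kept. A double motif overlaps any single motif inside it. An exact single motif stood in the windows of 7 genes and a double motif in those of 5 (Trp53, Cdkn1a, Ccng1, Aen and Bax), against 8.36% and 2.82% of all 32851 windows. Neither motif was found in the Btg2 and Phlda3 windows, or in the second Cdkn1a window. Aen, which was also measured, had a double motif with 3 mismatches that is not shown. The sequences below are examples of the p53 motif from 4 other genes measured here. Each has the motif in capitals, 15 flanking bases on each side, and the 5′ to 3′ strand of the gene.
Cdkn1a, chr17:29090928-29090947, plus strand, double motif with 1 mismatch: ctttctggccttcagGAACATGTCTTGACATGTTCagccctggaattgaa
Ccng1, chr11:40755462-40755481, minus strand, double motif with 1 mismatch: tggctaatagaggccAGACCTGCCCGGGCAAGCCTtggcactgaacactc
Mdm2, chr10:117710935-117710944, minus strand, exact single motif: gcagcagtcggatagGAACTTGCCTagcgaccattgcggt
Gadd45a, chr6:67037438-67037447, minus strand, exact single motif: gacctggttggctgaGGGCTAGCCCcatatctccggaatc
A match in these letters is a description of the window and no evidence of binding in these cells.

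Before the results, the arrays were checked against their labels. Akt1 signal ran from 44 to 103 with a median of 75 over 18 PKBa-/- arrays, against 843 to 1395 with a median of 1075 over 18 wild type arrays. Array medians lay between 134 and 145. All 12 fibroblast markers were measured, with a summed signal of 63003 to 72308 in PKBa-/- arrays and 53546 to 67552 in wild type arrays. Members of this sum differed in opposite directions, with medians of 655 in PKBa-/- and 7324 in wild type for Dcn, 4646 in PKBa-/- and 599 in wild type for Thy1, and 3108 in PKBa-/- and 1038 in wild type for S100a4. Mesothelial markers (4 of 5 measured) differed most in relative terms, with sums of 178 to 248 in PKBa-/- and 4417 to 7368 in wild type arrays, largely from Upk3b (medians of 60.9 in PKBa-/- and 4677 in wild type) and Wt1 (40.7 in PKBa-/- and 966 in wild type). Endothelial markers (5 of 5) summed to 307 to 508 in PKBa-/- and 538 to 1706 in wild type, largely Kdr, and immune markers (6 of 6) to 310 to 465 in PKBa-/- and 390 to 916 in wild type, with Ptprc near 17 in both. Epithelial markers (6 of 6) summed to 333 to 506 in PKBa-/- and 379 to 578 in wild type, and adipocyte markers (5 of 7) to 161 to 210 in PKBa-/- and 156 to 281 in wild type. No marker was listed at 0. These differences moved with genotype and their part in the p53 results was not tested; in bulk RNA, fewer cells of a type and less RNA per cell cannot be told apart.

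The 4 arrays of a group fell into 2 pairs. Replicates 1 and 2, and replicates 3 and 4, correlated at 0.982 to 0.997 within a pair and at 0.942 to 0.989 across pairs. Each pair was therefore averaged and counted as 1 replicate, which gives 2 per group and 1 at time 2. No label says whether replicates came from separate cultures, and the p-values therefore reflect how far these pairs differ, which may be technical. Differences are log2 differences of signal + 32, PKBa-/- minus wild type, ± SE from limma, with p adjusted over all 7436 genes and a threshold of 0.05. For each difference the values of the first and second pair are given where they bear on it. Averaged over times, the first pair includes time 2, whereas the second has no arrays at time 2 and leaves it out. A change from time 0 to time 2 sets the first pair at time 2 against the mean of both pairs at time 0.

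The first comparison asked whether p53 targets differed between PKBa-/- and wild type MEFs. Averaged over the 5 times, 6 of the 8 measured genes were lower in PKBa-/- cells and none was higher. This average counts the pairs of each time as separate replicates. Deviations of the pairs correlated at 0.53 to 0.78 between times within a genotype, so the averaged SE and p-values may be too small. Btg2 and Trp53inp1 were lower by more than 2-fold, and Mdm2, Cdkn1a, Ccng1 and Gadd45a by 1.39- to 1.55-fold. Aen and Phlda3 did not pass the test. A change in the same contrast was common among all genes: 47.4% passed, 20.9% as lower and 26.5% as higher in PKBa-/-. The median difference of the 8 genes was -0.56, against 0.03 over all tested genes. As the genes were chosen with earlier results of these data known, this comparison with all genes is a description and no test. At single times 11 of the 40 tests of these genes passed, all as lower (1, 2, 2, 3 and 3 genes at times 0, 2, 6, 24 and 48). Of all tested genes, 8.34%, 2.81%, 8.02%, 10.7% and 10.8% passed as lower at these times and 6.48%, 2.97%, 8.51%, 9.79% and 12.4% as higher.

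**Figure D1:**
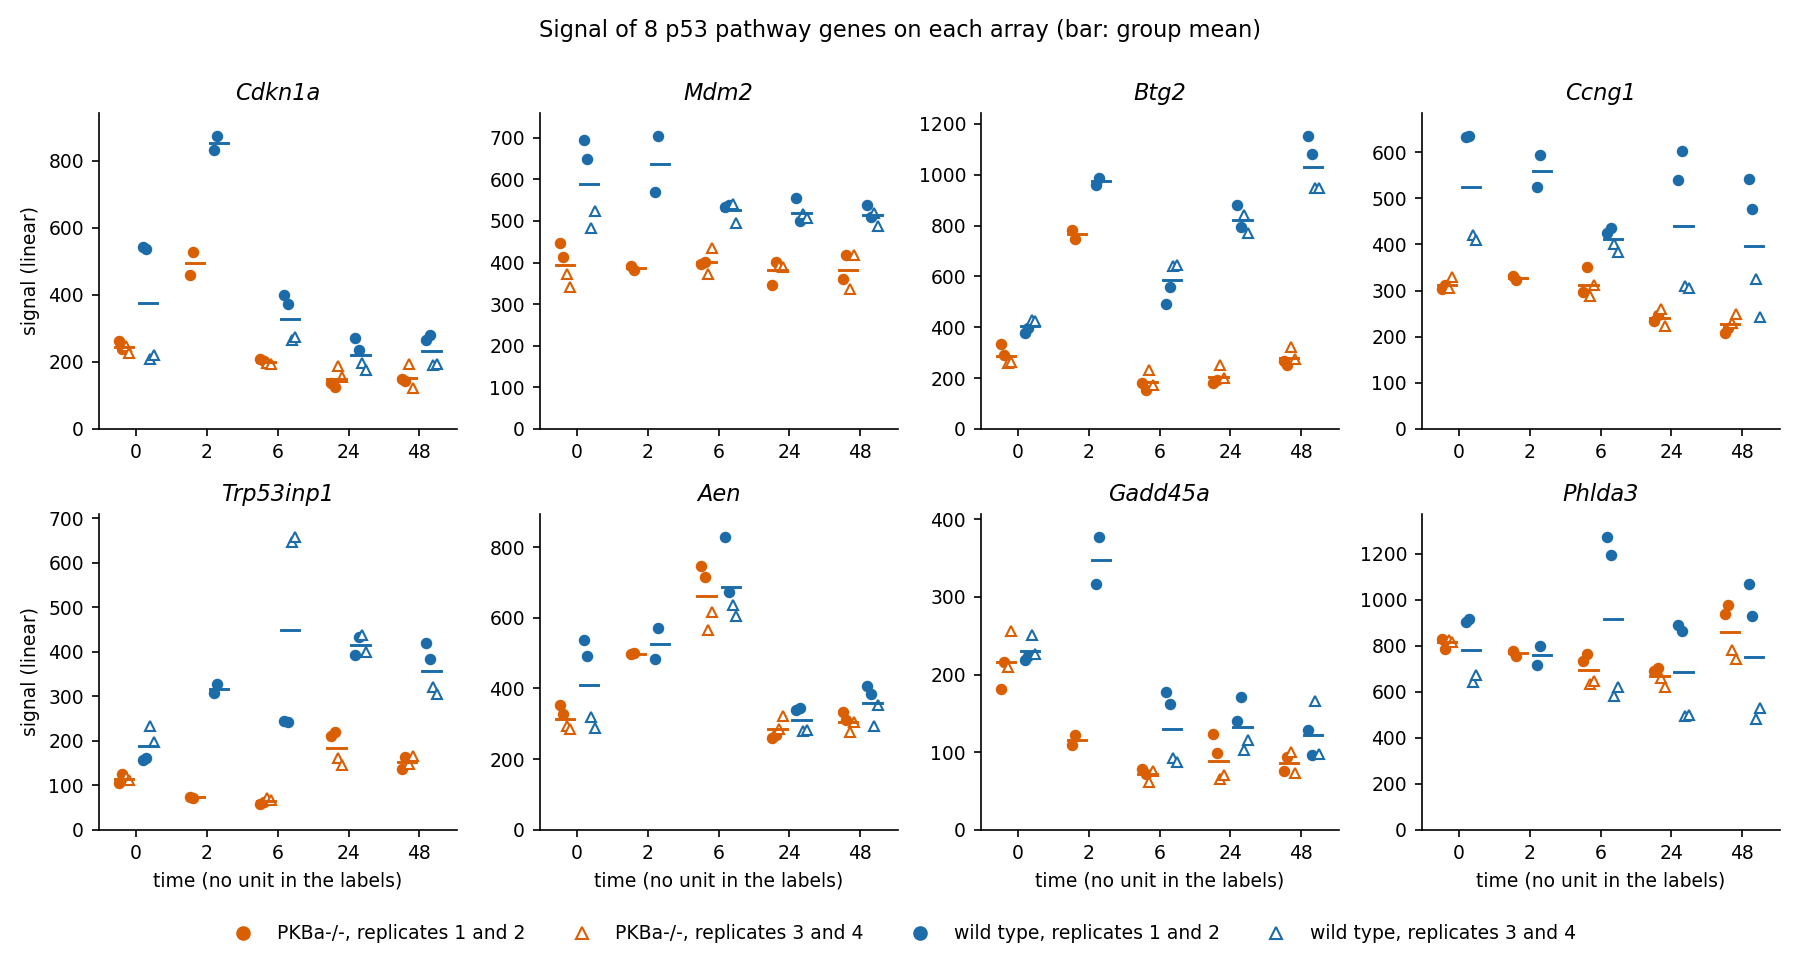
Signal of the 8 measured genes (vertical axes, linear, each from 0) on every array, by time (horizontal axis, evenly spaced, no unit in the labels), PKBa-/- left of wild type; filled points are replicates 1 and 2, open points replicates 3 and 4, bars the group means. For Mdm2, Btg2 and Trp53inp1 every PKBa-/- point lies below every wild type point of the same time.

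Mdm2, the ubiquitin ligase that p53 induces and that marks p53 for degradation, was lower in PKBa-/- cells at every time. At time 0 its signal was 447, 414, 372 and 342 in PKBa-/- arrays, against 695, 650, 483 and 523 in wild type arrays. At time 2 it was 392 and 381 in PKBa-/- against 569 and 704 in wild type. The groups did not overlap at either time. At time 6 PKBa-/- arrays read 396, 401, 372 and 434, against 533, 538, 540 and 496 in wild type. At time 24 the PKBa-/- values of 345, 401, 391 and 390 stood against wild type values of 555, 500, 516 and 507. At time 48 they were 360, 418, 336 and 418 in PKBa-/- and 538, 509, 519 and 487 in wild type. Again no PKBa-/- array reached the lowest wild type array. Averaged over times the difference was -0.48 ± 0.06 (limma, adjusted p = 6.3e-05), with -0.51 and -0.39 in the pairs. It passed at time 0 (-0.54 ± 0.13, adjusted p = 0.015), at time 24 (-0.42 ± 0.13, adjusted p = 0.039) and at time 48 (-0.40 ± 0.13, adjusted p = 0.043), and missed the threshold at times 2 and 6 (adjusted p of 0.056 and 0.074). Each of these calls was lost without 1 pair of its own time: at time 0 without the second PKBa-/- pair (-0.41, adjusted p = 0.18) or the first wild type pair (-0.34, adjusted p = 0.14), and at times 24 and 48 without any 1 of the 4 pairs (adjusted p of up to 0.14 and 0.17). The other Mdm2 probe set gave -0.56 over times and passed at time 0 (-0.56, adjusted p = 0.0486) and time 6 (-0.60, adjusted p = 0.035), but not at times 24 and 48 (adjusted p of 0.098 and 0.073). Mdm2 moved little over time in either genotype, with changes from time 0 between -0.04 and 0.03 in PKBa-/- and between -0.17 and 0.12 in wild type, and none passed.

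Cdkn1a encodes p21, the inhibitor of cyclin-dependent kinases through which p53 arrests the cell cycle. It was lower in PKBa-/- cells on average, but the pairs disagreed in size. At time 0 its signal was 261, 239, 248 and 226 in PKBa-/- arrays, against 542, 535, 207 and 221 in wild type arrays. The first wild type pair was above every PKBa-/- array and the second was below every one of them. At time 2 the PKBa-/- arrays read 460 and 527 against 831 and 873 in wild type. At time 6 they read 207, 202, 196 and 194 against 400, 372, 265 and 273 in wild type. At both times the groups were separate. At time 24 PKBa-/- arrays read 136, 124, 186 and 154 against 271, 236, 196 and 176 in wild type. At time 48 the PKBa-/- values were 148, 142, 194 and 123 against 265, 280, 189 and 193 in wild type. The groups overlapped in the second pair at both of these times. The averaged difference was -0.56 ± 0.15 (limma, adjusted p = 0.009), with -0.84 in the first pair and -0.16 in the second. No single time passed, and at time 0 the pairs gave -1.02 and 0.13. The other Cdkn1a probe set gave -0.39 ± 0.12 over times.

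Over time Cdkn1a peaked at time 2 in both genotypes. Within the first pair, the one measured at time 2, it rose from time 0 by 0.90 in PKBa-/- and by 0.63 in wild type. The fit sets time 2 against the mean of both pairs at time 0. The change from time 0 was 0.93 ± 0.38 (limma, adjusted p = 0.3) in PKBa-/- and 1.24 ± 0.38 (adjusted p = 0.12) in wild type. With the pair number of each genotype as a block, a fit added after the data were seen, these changes were 0.96 ± 0.21 (adjusted p = 0.0078) in PKBa-/- and 0.92 ± 0.21 (adjusted p = 0.011) in wild type. At times 24 and 48 Cdkn1a stood at -0.61 and -0.60 relative to time 0 in PKBa-/-, and at -0.59 and -0.52 in wild type, which did not pass. With that block all 4 values passed, with adjusted p from 0.016 to 0.032. The F test of a difference between the genotypes in these changes gave an adjusted p of 1.0, and the genotype difference ran from -0.75 to -0.44 over the 5 times.

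Btg2, a p53 target that restrains proliferation and is also an immediate early gene induced by serum, was lower in PKBa-/- cells by an amount that grew after time 2. At time 0 its signal was 334, 289, 258 and 264 in PKBa-/- arrays and 376, 395, 429 and 426 in wild type arrays. At time 2 both genotypes were high, with 783 and 747 in PKBa-/- against 961 and 987 in wild type. The genotypes then parted. At time 6 PKBa-/- arrays read 181, 153, 232 and 173, against 493, 559, 639 and 646 in wild type. At time 24 they read 181, 192, 250 and 199, against 879, 793, 843 and 772 in wild type. At time 48 the values were 268, 250, 324 and 275 in PKBa-/- against 1152, 1080, 947 and 946 in wild type. No PKBa-/- array reached a wild type array of its time, and from time 6 on the lowest wild type array stood above the highest PKBa-/- array by a wide gap.

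The averaged Btg2 difference was -1.19 ± 0.07 (limma, adjusted p = 4.8e-08), or 2.28-fold on this scale, with -1.22 and -1.37 in the pairs. It was -0.47 ± 0.15 (adjusted p = 0.0501) at time 0 and -0.34 ± 0.21 (adjusted p = 0.46) at time 2. It reached -1.51 ± 0.15 (adjusted p = 1.7e-05) at time 6, -1.85 ± 0.15 (adjusted p = 2.2e-06) at time 24 and -1.77 ± 0.15 (adjusted p = 3.0e-06) at time 48. The other Btg2 probe set gave -1.30, -1.76 and -1.83 at these 3 times.

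The second comparison asked how the genes changed from time 0 within each genotype. Of the 32 tests of the 8 genes in each genotype, 6 passed in PKBa-/- and 6 in wild type. The shares of all genes that passed were 3.39%, 18.4%, 6.15% and 7.45% in PKBa-/- and 2.73%, 11.9%, 5.66% and 6.01% in wild type at times 2, 6, 24 and 48. Btg2 was the gene that passed at time 2, in both genotypes: it rose by 1.33 ± 0.18 (limma, adjusted p = 0.0011) in PKBa-/- and by 1.20 ± 0.18 (adjusted p = 0.0023) in wild type. At time 6 it lay below its time 0 level in PKBa-/- (-0.56 ± 0.15, adjusted p = 0.019) and above it in wild type (0.49 ± 0.15, adjusted p = 0.0496). The PKBa-/- value at time 6 was -0.45 (adjusted p = 0.17) without the first PKBa-/- pair at time 6, and the wild type value was 0.35 (adjusted p = 0.27) without the second wild type pair at time 6. The wild type call at time 6 was also lost on log2(signal + 1), without a filter and with an intensity trend (adjusted p of up to 0.058). On the other Btg2 probe set neither change at time 6 passed (-0.46, adjusted p = 0.11 in PKBa-/- and 0.45, adjusted p = 0.13 in wild type). At times 24 and 48 PKBa-/- cells stood at -0.42 (adjusted p = 0.12) and -0.03 (adjusted p = 0.95), whereas in wild type Btg2 rose by 0.96 ± 0.15 (adjusted p = 0.0033) and 1.27 ± 0.15 (adjusted p = 5.4e-04). In wild type arrays, the levels at times 2 and 48 were thus the highest, that at time 24 followed, then time 6 and time 0, with no overlap between arrays of time 0 and any later time. In PKBa-/- arrays, time 2 stood alone at the top and the arrays of times 6 and 24 overlapped each other.

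**Figure D2:**
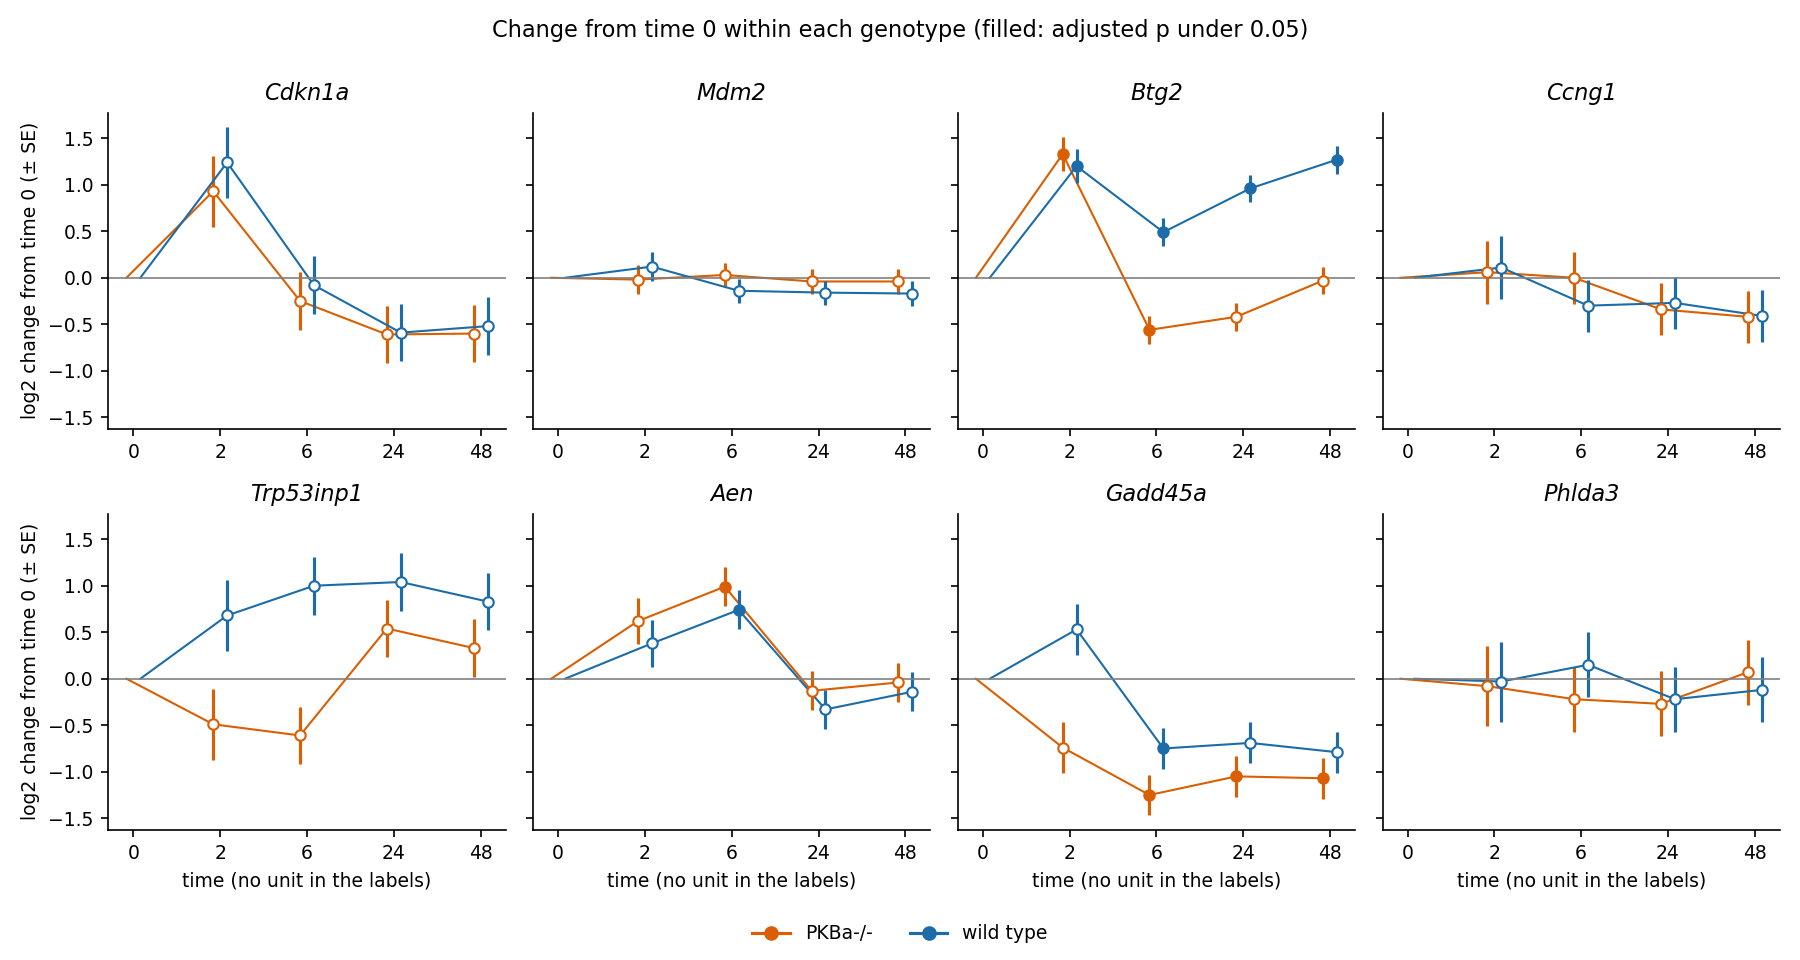
Change from time 0 (vertical axes, log2 of signal + 32, ± SE from limma) by time (horizontal axis, evenly spaced, no unit in the labels) in PKBa-/- and wild type cells; filled points have an adjusted p under 0.05. Btg2 rose in both genotypes at time 2 (1.33 in PKBa-/- and 1.20 in wild type), after which PKBa-/- cells stood at -0.03 and wild type cells at 1.27 by time 48.

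The difference between the genotypes in these changes was tested directly. In the F test over the 4 later times Btg2 passed, alone among the 8 genes (F = 20.3, limma, adjusted p = 0.0051), whereas 1.75% of all tested genes passed. At time 2 the Btg2 changes differed by 0.13 (adjusted p = 1.0). The PKBa-/- change minus the wild type change was -1.05 ± 0.21 at time 6 (adjusted p = 0.0468), -1.38 ± 0.21 at time 24 (adjusted p = 0.0097) and -1.31 ± 0.21 at time 48 (adjusted p = 0.009). At times 2, 6, 24 and 48, 0.242%, 0.551%, 0.726% and 1.14% of all genes passed. Both pairs had the same sign at times 6, 24 and 48. The call at time 6 was lost in several fits that left out 1 pair, with an adjusted p of up to 0.24, and also without a filter, with the mean of all probe sets and with an intensity trend (adjusted p of up to 0.0537). The calls at times 24 and 48 reached 0.068 and 0.056 without the first PKBa-/- pair at time 0. On the other Btg2 probe set the difference was -0.91 (adjusted p = 0.18) at time 6, -1.37 (adjusted p = 0.038) at time 24 and -1.44 (adjusted p = 0.017) at time 48.

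Ccng1 encodes cyclin G1, a p53 target that recruits a phosphatase to Mdm2. Its signal at time 0 was 304, 311, 305 and 329 in PKBa-/- arrays and 634, 635, 421 and 409 in wild type arrays. At time 2 it was 331 and 323 in PKBa-/- against 525 and 595 in wild type, and at time 6 PKBa-/- arrays read 297, 351, 289 and 312 against 425, 435, 401 and 384 in wild type. The groups were separate at all 3 times, and at times 0 and 6 the first wild type pair was the higher one. At time 24 PKBa-/- arrays read 234, 246, 260 and 223 against 540, 602, 309 and 305 in wild type. At time 48 they read 208, 219, 229 and 250 against 542, 476, 324 and 243 in wild type, with 1 wild type array among the PKBa-/- arrays. The averaged difference was -0.63 ± 0.14 (limma, adjusted p = 0.0021), with -0.87 in the first pair and -0.31 in the second, and no single time passed on this probe set. Its other probe sets gave -0.55 and -0.48 over times, and the first of these did not pass (adjusted p = 0.081). The second of them passed at time 24 (-0.78 ± 0.18, adjusted p = 0.011). No change of Ccng1 from time 0 passed on the brightest probe set, whereas this second one fell in wild type by 0.74 ± 0.18 at time 48 (adjusted p = 0.038).

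Trp53inp1, a stress-induced nuclear protein that enhances p53 activity and acts in autophagy, was lower in PKBa-/- cells at every time. At time 0 its signal was 105, 125, 119 and 112 in PKBa-/- arrays against 158, 162, 233 and 198 in wild type arrays. At time 2 it was 74.8 and 70.9 in PKBa-/- against 308 and 327 in wild type. Here the PKBa-/- arrays were lower, and the wild type arrays higher, than at time 0. At time 6 PKBa-/- arrays read 58.6, 61.5, 71.2 and 67.1, against 245, 242, 648 and 658 in wild type, where the second pair stood far above the first. At time 24 the PKBa-/- values were 210, 219, 162 and 146, against 392, 434, 437 and 399 in wild type. At time 48 they were 137, 163, 148 and 166 in PKBa-/- and 419, 383, 321 and 305 in wild type. The groups did not overlap at any time on the brightest probe set.

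Averaged over times Trp53inp1 differed by -1.32 ± 0.15 (limma, adjusted p = 1.8e-05), with -1.16 and -1.41 in the pairs. It passed at time 2 (-1.74 ± 0.44, adjusted p = 0.036), time 6 (-2.17 ± 0.31, adjusted p = 4.3e-04), time 24 (-1.06 ± 0.31, adjusted p = 0.029) and time 48 (-1.06 ± 0.31, adjusted p = 0.027). At time 6 the pairs gave -1.58 and -2.76. Leaving out 1 pair, the adjusted p reached 0.056 at time 2, 0.16 at time 24 (without the second PKBa-/- pair, -0.86) and 0.12 at time 48 (without the first wild type pair, -0.90), and 0.0068 at time 6. The dimmer Trp53inp1 probe set showed a smaller difference, -0.55 ± 0.16 over times (adjusted p = 0.013) and -0.98 at time 6 (adjusted p = 0.067), and with the mean of both probe sets the calls at times 2, 24 and 48 were lost (adjusted p of 0.15, 0.056 and 0.091). The changes from time 0 were -0.49 and -0.61 in PKBa-/- at times 2 and 6 and 0.68 and 1.00 in wild type, none of which passed, with adjusted p = 0.057 for the wild type value at time 6. At times 24 and 48 the wild type changes were 1.04 (adjusted p = 0.075) and 0.83 (adjusted p = 0.15). With the pair number of each genotype as a block, the wild type changes passed at times 6, 24 and 48 (adjusted p of 0.0098, 0.011 and 0.034), and the PKBa-/- change minus the wild type change passed at time 6 (-1.60 ± 0.37, adjusted p = 0.018). The F test of the difference in these changes did not pass (adjusted p = 0.34).

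**Figure D3:**
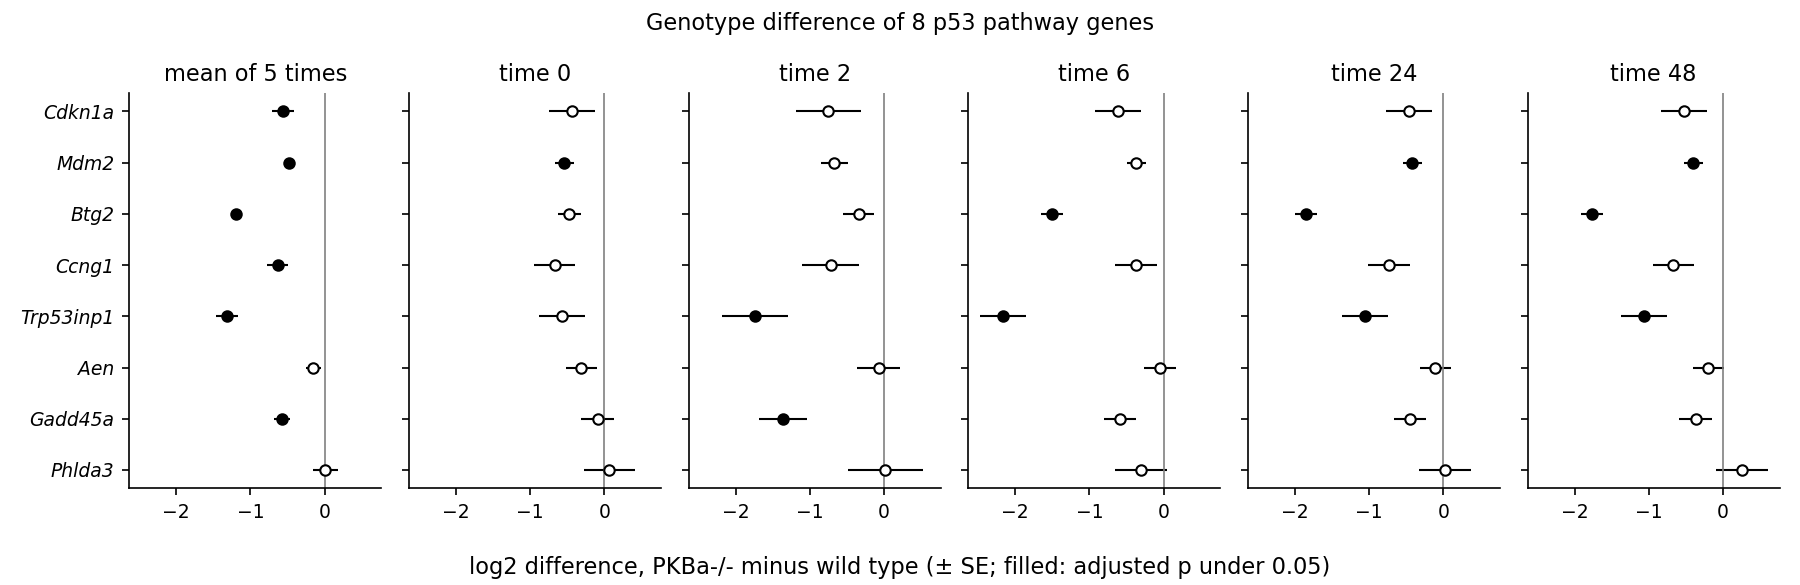
Genotype difference of the 8 genes (horizontal axes, log2 PKBa-/- minus wild type of signal + 32, ± SE from limma); the first panel is the mean over the 5 times and the others show single times; filled points have an adjusted p under 0.05. Of the filled points, all lie below 0; Btg2 grows from -0.47 at time 0 to -1.77 at time 48, and Trp53inp1 is lowest at time 6 (-2.17).

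Gadd45a, a p53 target in DNA repair and stress kinase signalling, overlapped between the genotypes at time 0 and fell by time 6 in both. At time 0 its signal was 182, 216, 210 and 256 in PKBa-/- arrays and 219, 224, 251 and 227 in wild type arrays, with overlap. At time 2 it was 109 and 122 in PKBa-/- against 317 and 377 in wild type. At time 6 PKBa-/- arrays read 78.8, 71.8, 62.1 and 75.9 against 177, 162, 91.9 and 86.8 in wild type. The groups were separate at times 2 and 6. At time 24 the values were 123, 98.7, 65 and 70.3 in PKBa-/- against 140, 171, 103 and 116 in wild type, and at time 48 they were 76.3, 93.9, 99.6 and 73.2 in PKBa-/- against 128, 96.5, 166 and 98.3 in wild type, both with overlap. The averaged difference was -0.57 ± 0.11 (limma, adjusted p = 9.8e-04), with -0.62 and -0.31 in the pairs, and time 2 was the single time that passed (-1.36 ± 0.32, adjusted p = 0.024, 1 pair per genotype). Relative to time 0, Gadd45a fell in PKBa-/- by 1.25 ± 0.22 at time 6 (adjusted p = 0.0029), by 1.05 ± 0.22 at time 24 (adjusted p = 0.016) and by 1.07 ± 0.22 at time 48 (adjusted p = 0.012). In wild type it fell by 0.75 ± 0.22 at time 6 (adjusted p = 0.0492) and stood at -0.69 and -0.79 later (adjusted p of 0.1 and 0.06). The wild type call at time 6 was lost on log2(signal + 1), without a filter and with quantile normalization (adjusted p of 0.058, 0.077 and 0.065). Its value was -0.38 (adjusted p = 0.33) without the second wild type pair at that time, and the PKBa-/- calls at times 24 and 48 reached an adjusted p of 0.14 and 0.11 without the second PKBa-/- pair at time 0. At time 2 it stood at -0.74 (adjusted p = 0.23) in PKBa-/- and at 0.53 (adjusted p = 0.45) in wild type, a difference of -1.27 ± 0.39 that did not pass (adjusted p = 0.59).

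Aen encodes a nuclease that p53 induces and that enhances apoptosis. It followed the same course in both genotypes. Its signal at time 6 was 747, 715, 564 and 617 in PKBa-/- arrays and 828, 674, 637 and 605 in wild type arrays, against 352, 328, 295 and 284 at time 0 in PKBa-/- and 537, 492, 319 and 289 at time 0 in wild type. The PKBa-/- and wild type arrays overlapped at all 5 times. Aen rose at time 6 by 0.99 ± 0.21 in PKBa-/- (limma, adjusted p = 0.0064) and by 0.74 ± 0.21 in wild type (adjusted p = 0.04). At time 2 it read 497 and 500 in PKBa-/- and 484 and 570 in wild type, and at times 24 and 48 all arrays of both genotypes lay between 261 and 408. Without the second wild type pair at time 0 the wild type change at time 6 was 0.39 (adjusted p = 0.29), and the PKBa-/- change was 0.85 (adjusted p = 0.076) without the first PKBa-/- pair at time 6. The genotype difference over times was -0.15 ± 0.10 (adjusted p = 0.25), and its other probe sets both gave -0.08, 1 of them below the level tested.

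Phlda3, a pleckstrin homology protein that competes with Akt for membrane lipids and is induced by p53, did not pass any test. Its signal at time 0 was 831, 786, 826 and 818 in PKBa-/- arrays and 902, 918, 642 and 674 in wild type arrays. At time 6 it was 735, 765, 633 and 648 in PKBa-/- against 1273, 1195, 583 and 620 in wild type. At time 48 PKBa-/- arrays read 940, 976, 783 and 744 against 1071, 930, 481 and 528 in wild type. The wild type pairs lay on either side of the PKBa-/- arrays at times 0 and 6. Averaged over times the difference was 0.01 ± 0.17 (limma, adjusted p = 0.97), with -0.24 in the first pair and 0.33 in the second.

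**Figure D4:**
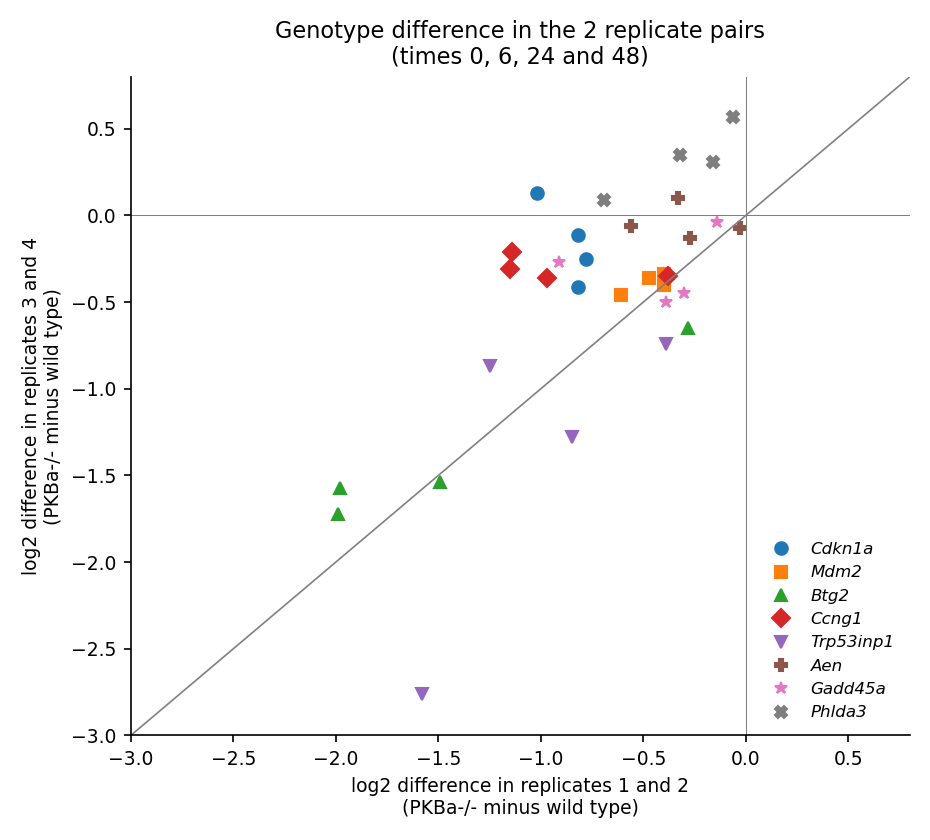
Genotype difference (log2 PKBa-/- minus wild type of signal + 32) of each gene in replicates 1 and 2 (horizontal axis) and in replicates 3 and 4 (vertical axis); each gene has a point for times 0, 6, 24 and 48, and the diagonal marks equal values. Mdm2 and Btg2 are below 0 in both pairs at all 4 times, Cdkn1a at time 0 has -1.02 against 0.13, and the Phlda3 points are below 0 in the first pair and above it in the second.

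The 8 genes thus separated the genotypes to different degrees. On the brightest probe set, Mdm2, Btg2 and Trp53inp1 had every PKBa-/- array below every wild type array at all 5 times, which held for 6.95% of all tested genes. Ccng1 did so at 4 times, Cdkn1a and Gadd45a at times 2 and 6, and Aen and Phlda3 at none. By time, 4, 6, 6, 4 and 3 of the 8 genes were separated in this direction at times 0, 2, 6, 24 and 48, against 20.3%, 31.3%, 18.4%, 16.9% and 16.8% of all genes. On their other probe sets, Mdm2 and Btg2 were again separate at all 5 times. The dimmer Trp53inp1 probe set overlapped at times 0 and 48, and both other Ccng1 probe sets overlapped at times 0 and 48. The other Cdkn1a probe set was separate at times 24 and 48 as well.

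How the genes moved with each other was described by Pearson's correlation over group means, which share arrays and genotype. Over the 10 group means, Mdm2 and Ccng1 correlated at 0.94. Within wild type, over 5 times, Mdm2 correlated with Gadd45a at 1.00, with Ccng1 at 0.97 and with Cdkn1a at 0.93, whereas in PKBa-/- these values were 0.07, 0.73 and 0.20. Btg2 and Cdkn1a correlated at 0.89 in PKBa-/- and at 0.11 in wild type. With so few points these values are descriptions and were given no test. Mdm2 moved little over time and none of its changes from time 0 passed, so its correlations within a genotype rest on small differences. The means at time 2 hold the first pair alone. Within that pair the wild type changes at time 2 were -0.08 for Mdm2 and -0.17 for Ccng1, against 0.12 and 0.11 in the fit. Among all tested genes, those most like Cdkn1a over the 10 means were Maff (Pearson 0.977, Spearman 0.964), Klf4 (0.973 and 0.855) and Ifrd1 (0.969 and 0.903). Those most like Mdm2 were Fgf18 (0.988 and 0.927), Folr1 (0.984 and 0.782) and Nnat (0.983 and 0.903). For Trp53inp1 they were Sgtb (0.961 and 0.939), Hspb8 (0.949 and 0.952) and Zfp101 (0.940 and 0.879).

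Further p53 targets were read from a list of 40 genes outside the set, of which 36 had a named probe set and 26 were tested. Averaged over times 9 of the 26 were lower and 4 higher in PKBa-/-, with a median of -0.15; of all tested genes 20.9% were lower and 26.5% higher. The list was mixed in direction. Igfbp3, a secreted binding protein of insulin-like growth factors, ran from 37 to 354 with a median of 124 in PKBa-/- arrays and from 1012 to 5725 with a median of 2145 in wild type arrays, a difference of -3.93 ± 0.27 (limma, adjusted p = 1.4e-07). Dcxr, a sugar reductase, differed by -0.85 ± 0.24 (adjusted p = 0.011), with -1.29 and -0.21 in the pairs. In the other direction stood Bid, a pro-apoptotic BCL2 family member (medians of 332 in PKBa-/- and 127 in wild type, 1.16 ± 0.06, adjusted p = 1.5e-08), and Dram1, a lysosomal protein of autophagy (medians of 291 in PKBa-/- and 136 in wild type, 0.88 ± 0.11, adjusted p = 2.8e-05).

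Over time, by time 48, Igfbp3 rose by 2.21 ± 0.54 (limma, adjusted p = 0.028) and Rev3l, a subunit of translesion polymerase zeta, by 1.27 ± 0.26 (adjusted p = 0.011) in PKBa-/- cells. In wild type cells Sesn1, a stress-induced inhibitor of mTORC1 signalling, rose by 1.67 ± 0.19 (adjusted p = 5.4e-04) and Ddit4, another one, by 1.15 ± 0.24 (adjusted p = 0.014). Of the 26 genes 4 rose and 4 fell at time 48 in PKBa-/-, and 4 rose and 3 fell in wild type, where 7.45% of all tested genes in PKBa-/- and 6.01% in wild type passed in either direction. Sesn1 was also lower in PKBa-/- on average (-0.84 ± 0.09, adjusted p = 1.3e-05).

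Among 28 regulators and relatives of p53, 15 were tested, of which 2 were lower and 4 higher in PKBa-/- on average, with a median of 0.05; 47.4% of all tested genes passed. The death-associated kinase gene Dapk1 differed by -0.79 ± 0.11 (limma, adjusted p = 1.2e-04), and Rchy1, a ubiquitin ligase of p53, by -0.43 ± 0.06 (adjusted p = 7.8e-05). Daxx, a partner of Pml and Mdm2, differed by 0.48 ± 0.05 (adjusted p = 9.6e-06), and Pml, which recruits p53 to nuclear bodies, by 0.32 ± 0.06 (adjusted p = 7.3e-04). At time 48 none of the 15 passed for a change in either genotype (limma), where unadjusted p was under 0.05 for 0 in PKBa-/- and 1 in wild type. Of all tested genes, 7.45% passed in PKBa-/- and 6.01% in wild type. Unadjusted p was under 0.05 for 767 of all 7436 genes as higher and 820 as lower in PKBa-/-, and for 546 and 962 in wild type.

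**Figure D5:**
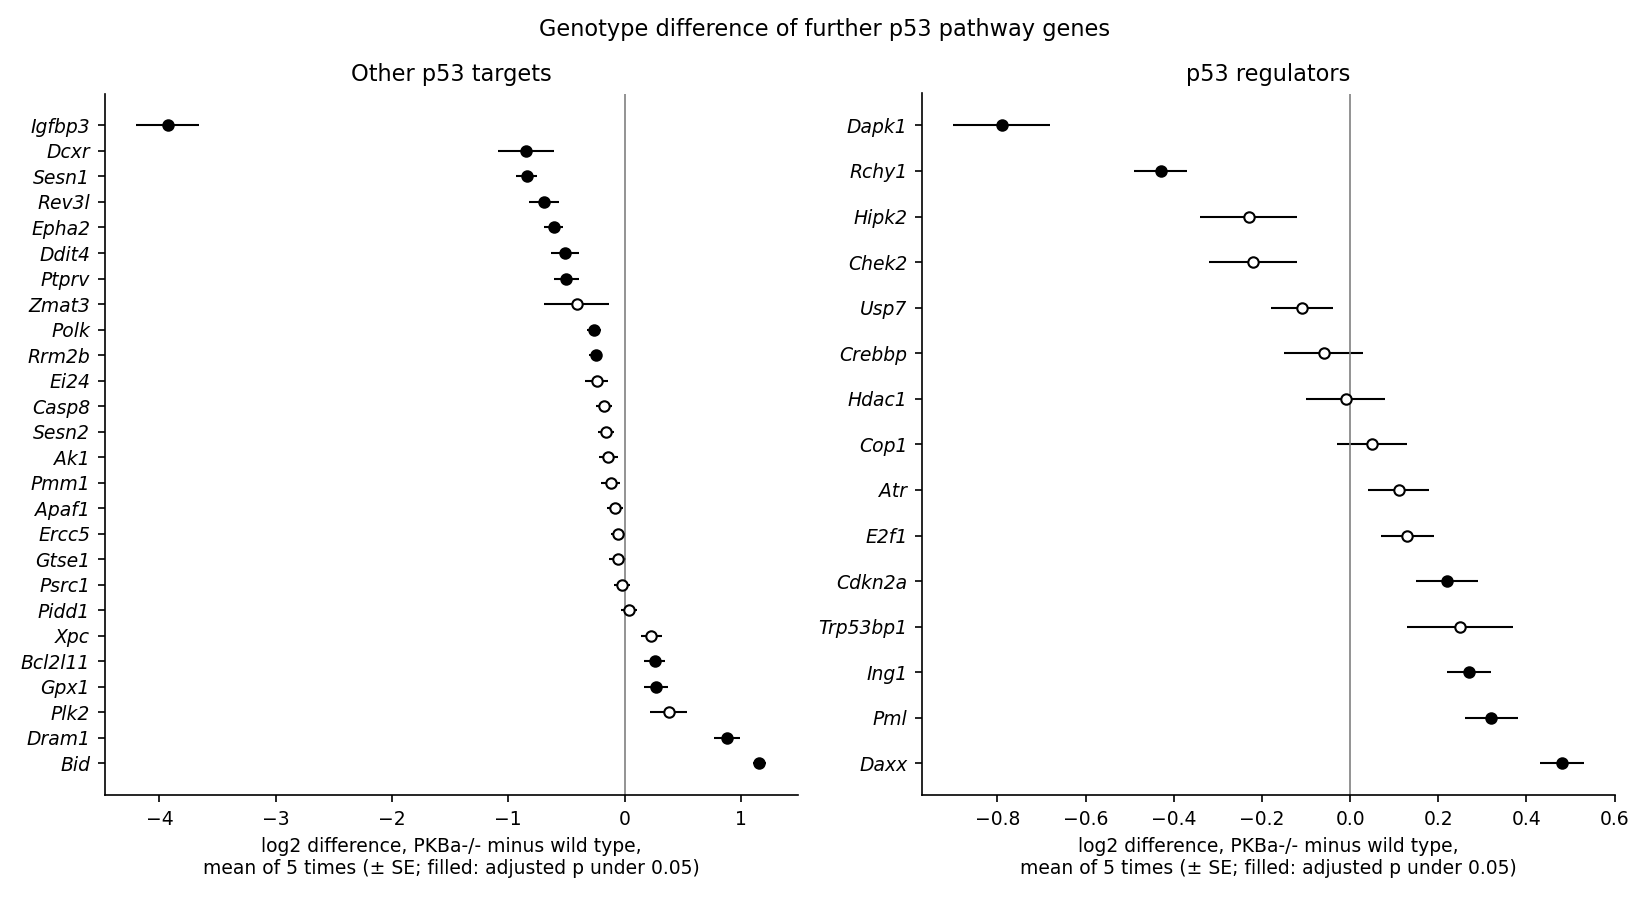
Genotype difference averaged over the 5 times (horizontal axes, log2 PKBa-/- minus wild type of signal + 32, ± SE from limma) of the 26 tested further p53 targets (left) and 15 regulators and relatives of p53 (right), sorted by value; filled points have an adjusted p under 0.05. Igfbp3 lies at -3.93 and Bid at 1.16, with both directions present in each panel.

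Cell cycle genes that p21 represses through the DREAM and RB complexes were read as a downstream list of 16 genes, of which 14 were tested. At time 0 their median difference was -0.27, with 2 lower and none higher in PKBa-/-, and at time 6 it was -0.51, with 4 lower and none higher. At time 2, with 1 pair per genotype, the median was -0.31. At time 24 the median was 0.14, with 3 higher and none lower, and at time 48 0.54, with 5 higher and none lower. Over all genes the medians at the 5 times lay between 0.01 and 0.05. At times 0, 6, 24 and 48, 8.34%, 8.02%, 10.7% and 10.8% of all genes passed as lower and 6.48%, 8.51%, 9.79% and 12.4% as higher. At time 48 the mitotic kinase Plk1 differed by 0.79 ± 0.14 (limma, adjusted p = 0.0019) and the proliferation marker Mki67 by 0.98 ± 0.19 (adjusted p = 0.0031), 2 examples chosen after their values were seen. Averaged over times 3 genes were lower, namely Cks2 (-0.63 ± 0.08, adjusted p = 5.9e-05), Cdc20 (-0.47 ± 0.11, adjusted p = 0.0029) and Cdk1 (-0.37 ± 0.08, adjusted p = 0.0033), and 2 were higher, Bub1 (0.34 ± 0.11, adjusted p = 0.02) and Plk1 (0.21 ± 0.07, adjusted p = 0.028), against 20.9% of all genes as lower and 26.5% as higher. Within PKBa-/- cells 7 of the 14 rose by time 24 and 2 by time 48, Cdk1 by 0.78 ± 0.17 (adjusted p = 0.016) and the replication helicase subunit Mcm5 by 0.76 ± 0.18 (adjusted p = 0.025), and in wild type none passed at either time, with an unadjusted p under 0.05 for 2 that were higher at time 24 and 4 that were lower at time 48. Of all genes, 6.15% and 7.45% passed in PKBa-/- and 5.66% and 6.01% in wild type at times 24 and 48. In wild type, unadjusted p was under 0.05 for 623 of all 7436 genes as higher at time 24 and for 962 as lower at time 48. By time 6, 1 of the 14 rose and 2 fell in PKBa-/- and none passed in wild type. At that time 18.4% of all genes passed in PKBa-/- and 11.9% in wild type. The difference between genotypes in these changes did not pass for any of the 14 at any time (limma). It was positive for all 14 at times 24 and 48, with medians of 0.52 and 0.80 and an unadjusted p under 0.05 for 4 and 13. Of all 7436 genes, it was positive for 3557 and 3915 at these times. Of these, 305 and 500 had an unadjusted p under 0.05.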

How the data were processed

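Per the labels, biotinylated cRNA from total RNA was hybridized to Affymetrix arrays. The deposited table holds 1 linear intensity per probe set and array (8.62 to 19337); its summarisation and normalization by the authors are not given in the sources used here. Of 22690 probe sets, 20380 had 1 gene, 691 several, 1555 were unnamed and 64 were controls. Each gene was read on its brightest probe set, as log2(signal + 32), without further normalization. The 40% of genes with the lowest mean were not tested (lowest mean signal tested, 123).

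Replicates 1 and 2, and 3 and 4, of each group were averaged, giving 18 values in 10 groups. With limma 3.58.1 (R 4.3.3), 1 mean per group was fitted with empirical Bayes moderation (8 residual and 4.24 prior degrees of freedom), two-sided, with Benjamini-Hochberg adjustment within each contrast. Deviations of the pairs from their group means correlated at 0.53 to 0.78 between times within a genotype and at -0.01 to 0.41 between genotypes. On simulated data of 7436 genes for time 48 against time 0 in PKBa-/-, 40.3%, 88.1% and 95.5% of 1.5-, 2- and 4-fold changes were recovered, with 10 false calls. The members, the lists, the pair averages and the other settings were chosen with earlier results of these data known. Named genes outside the set were, per list, the 4 (cell cycle genes: up to 3) with the largest averaged genotype difference and the 2 with the largest change at time 48 in each genotype, among those that passed with 1 sign in both pairs; Sesn1, Bub1 and Plk1 on average are outside this rule and were chosen after their values were seen. The number of arrays limits the precision.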

Additional observations from a re-analysis of the deposited data

Results flagged for a closer look

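Btg2 is listed because its change from time 0 differed between the genotypes in the F test over the 4 later times (limma, adjusted p = 0.0051): by time 48 it stood at -0.03 relative to time 0 in PKBa-/- and at 1.27 in wild type.

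In 1 of the 64 groups of 4 arrays examined for the 8 genes, an array stood apart from the others. Mdm2 read 496 in replicate 4 of wild type at time 6, against 533 to 540 in the other 3 arrays, a gap of 0.855 of the range. About 1 in 20 such groups is picked out by chance, and the array still lay above all PKBa-/- arrays of that time, which reached 434.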

How the results depend on the processing

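The 2 pairs per group set the limit: the calls at single times and over time depended on what counted as a replicate. Averaged over times, 6 of the 8 genes passed. This count was 3 when 60% of genes were left untested, where 5 of the 8 genes remained in the test. It was 7 with arrays as replicates and 8 within replicates 1 and 2 alone, all as lower. Within replicates 3 and 4 alone, 7 of the genes were tested, and 5 passed as lower and 1 as higher. At single times 11 tests passed. The count was 23 with arrays as replicates, 18 with the replicate block (pair number) and 29 with arrays and the replicate block together. It was 34 within replicates 1 and 2 alone, 19 within replicates 3 and 4 alone, and 6 with the 60% filter. Of the 19, 1 at each of times 0, 24 and 48 was higher in PKBa-/-. The count over all genes rose as well. Averaged over times, 3521 of 7436 genes passed in the main fit and 4845 with arrays as replicates. Within replicates 1 and 2 alone 5440 passed, and within replicates 3 and 4 alone 5245. With the 60% filter 2524 of 4958 genes passed. At time 0, 1102 of 7436 genes passed in the main fit, 3072 with arrays as replicates and 3641 with arrays and block. It was 1887 with the replicate block, 3503 within replicates 1 and 2 alone and 3614 within replicates 3 and 4 alone. The 6 calls over time in PKBa-/- became 14 with arrays, 15 with arrays and the block, 23 and 11 within the pairs alone, 3 with the 60% filter, and 12 with the block within genotype added later. The 6 in wild type became 15, 17, 26 and 11 in those fits, 11 with a random pair effect (correlation 0.66), 10 with the replicate block, 3 without a filter, and 15 with the block within genotype. Over all 7436 genes, 1366 passed at time 6 in PKBa-/- in the main fit, 3004 with arrays and 2752 with the block within genotype. In wild type these counts were 886, 2700 and 2393. For the F test, 1 gene became 3 with arrays and with arrays and block, 6 and 3 within the pairs alone, and 2 with the random pair effect and with the block within genotype. Over all 7436 genes, the difference in the changes at time 48 passed for 85 in the main fit and 1064 with arrays. It passed for 305 with the random pair effect and 830 with the block within genotype. Leaving out 1 pair at a time, the counts ran from 6 to 7 averaged over times, 7 to 14 at single times, 3 to 7 in PKBa-/-, 3 to 9 in wild type and 1 to 2 for the F test. Of 9356 values of single genes under alternatives, 2 changed sign with a call, both Phlda3 within replicates 1 and 2 alone: -0.24 over times and -0.32 at time 24. For these 2 the cause was not tested. The labels give no pairing by pair number. Deviations of the pairs correlated at 0.53 to 0.78 between times within a genotype and at -0.01 to 0.41 between genotypes. The main tests of change from time 0 did not use this link between times, and the block within genotype did. Whether the pair number also links the genotypes could not be decided with 2 pairs. Other offsets, quantile normalization and an intensity trend left the averaged count at 6.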
